A study of Homo sapiens with 15 samples.

Results

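The genes of the NF-κB system described here are 10 of the 43388 genes counted in each library. They were chosen by symbol, with earlier results of these data known, so they are not a blind choice. They were kept apart as the canonical subunits NFKB1, RELA and REL, the noncanonical subunits NFKB2 and RELB, the IκB inhibitors NFKBIA, NFKBIB and NFKBIE, and the feedback ubiquitin enzymes TNFAIP3 and BIRC3. RNA was sequenced from A549, a wild-type human lung adenocarcinoma line of epithelial origin, after 72 hours in hyperoxia (95% O2) or in normoxia (21% O2). Before the exposure, cells received 1e-05 mM all-trans retinoic acid (ATRA, the active form of vitamin A) or its ethanol vehicle for 24 hours, and further cultures are labelled with the oxygen exposure alone and are called here cells without vehicle. The 14 libraries with a group were 2 of hyperoxia with vehicle, 2 of normoxia with vehicle, 3 of hyperoxia with ATRA, 3 of normoxia with ATRA, 2 of hyperoxia without vehicle and 2 of normoxia without vehicle. All of them came from the same cell line, time and growth medium, so that every comparison is within 1 transformed line. The labels do not say that libraries of a group came from separate cultures, so p-values measure the spread between these libraries, which may be technical.

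NF-κB transcription factors are dimers of 5 related subunits, and in resting cells IκB proteins hold them in the cytosol. In the canonical arm, signals from TNF, interleukin-1 and Toll-like receptors lead to the destruction of IκB and free dimers that contain RELA or REL. In the noncanonical arm, the kinase NIK, encoded by MAP3K14, leads to processing of the NFKB2 precursor, whose uncleaved form holds RELB back. Several of the genes for inhibitors and for the ubiquitin enzymes that end signalling are themselves NF-κB targets, and in lung epithelium the pathway is best known for inflammatory and survival gene programmes.

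Libraries held from 2642377 to 5605072 counts assigned to genes, and a floor of 3 counts was worth 0.535 to 1.14 CPM (counts relative to the size of the library). Normalised read counts are given in CPM after TMM scaling, and such floors cover counting error only. The values are shares of a library made from whole cultures, so fewer cells of a kind and less RNA per cell cannot be told apart. Library 1 of hyperoxia without vehicle stood apart, with 12657 genes that had a count against 16465 to 20108 in the other libraries. It differed from library 2 of its group more than any other replicate pair did (a chi-square of 31.5 per gene, against 3.98 to 16.8 elsewhere). Library 1 of hyperoxia with ATRA had the most counts, 5605072, but only 16466 genes with a count. The part of this in its values was not tested. All 8 A549 epithelial markers had counts in every group, with EPCAM at no more than 24 counts in a library, and their summed level was 7040 to 9881 CPM in hyperoxia and 11077 to 14692 CPM in normoxia. In the vehicle comparison, 5 of these 8 fell in hyperoxia, and KRT18 fell by 2.13 on the log2 scale (edgeR adjusted p = 2.17e-08). The part of this fall in the results on oxygen was not tested. The 6 leukocyte markers together reached at most 15.3 CPM, with PTPRC at no more than 1 count in any library, and the 6 endothelial and fibroblast markers reached at most 12.9 CPM. The p53 targets CDKN1A, MDM2 and GDF15 all rose in hyperoxia, and 3 of 5 genes that answer to ATRA rose with it in hyperoxia and 4 of 5 in normoxia.

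The stretches before the transcription start of these genes are shown first, since several hold a match to the motif that NF-κB dimers are known to recognise. RefSeq windows of 250 bases upstream of an annotated start (GRCh38.p14, read on the strand of the gene) were available for 8 of the 10 genes, in 13 windows. A script searched them on both strands for the 10-base κB consensus motif, counting overlapping matches, and found it in 8 windows of 7 genes, all but RELA. Among 35116 such RefSeq windows, 9.96% held at least 1 match, and among 22199 windows of protein-coding genes 11.3% did. Below, capitals mark the matched bases. BIRC3 lies on chromosome 11 from 102317484 to 102339403, and the window before its start is chr11:102317234-102317483 on the plus strand, with matches that begin at -199 and -135 from the start.
BIRC3: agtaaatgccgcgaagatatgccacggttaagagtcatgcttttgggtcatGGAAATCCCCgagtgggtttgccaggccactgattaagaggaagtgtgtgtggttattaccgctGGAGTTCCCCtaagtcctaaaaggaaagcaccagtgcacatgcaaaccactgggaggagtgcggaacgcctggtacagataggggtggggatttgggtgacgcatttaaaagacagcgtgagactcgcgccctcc

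NFKB2 lies on chromosome 10 from 102394110 to 102402529 and has several annotated starts. The window before the first of them held no match, and that before the second held 3, with all 250 bases exonic. The window before the third, shown here, is chr10:102395455-102395704 on the plus strand, with matches at -176 and -21 and 12 exonic bases. NFKBIA lies on the minus strand of chromosome 14 from 35401513 to 35404749, and its window is chr14:35404750-35404999 with a match at -81.
NFKB2: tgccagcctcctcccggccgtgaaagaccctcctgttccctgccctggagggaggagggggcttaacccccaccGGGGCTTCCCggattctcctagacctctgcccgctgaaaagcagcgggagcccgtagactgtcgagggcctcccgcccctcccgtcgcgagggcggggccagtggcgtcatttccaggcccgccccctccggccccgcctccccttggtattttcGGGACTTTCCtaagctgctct
NFKBIA: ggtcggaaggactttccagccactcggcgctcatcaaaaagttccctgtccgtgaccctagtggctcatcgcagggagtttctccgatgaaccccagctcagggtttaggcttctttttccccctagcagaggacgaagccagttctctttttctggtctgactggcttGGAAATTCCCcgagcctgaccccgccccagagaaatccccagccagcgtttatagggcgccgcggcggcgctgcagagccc

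For TNFAIP3, REL, NFKB1 and NFKBIB, whose windows overlap annotated exons, only the 30 bases around the match are shown, on the plus strand of each. They lie at chr6:137867188-137867217, chr2:60881518-60881547, chr4:102501300-102501329 and chr19:38899932-38899961. Those of TNFAIP3 and NFKBIB lie inside the annotated genes, which begin at 137866349 and 38899666.
TNFAIP3: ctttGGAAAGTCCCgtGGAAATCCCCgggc
REL: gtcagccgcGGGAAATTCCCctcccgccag
NFKB1: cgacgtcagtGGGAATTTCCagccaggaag
NFKBIB: ggcgtggtgGGGAATTTCCCgcagggcgga
A match describes these letters and is not evidence of binding, and the windows of RELA on chromosome 11 held none. RELB and NFKBIE were not analysed here for promoter sequence.

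**Figure D1:**
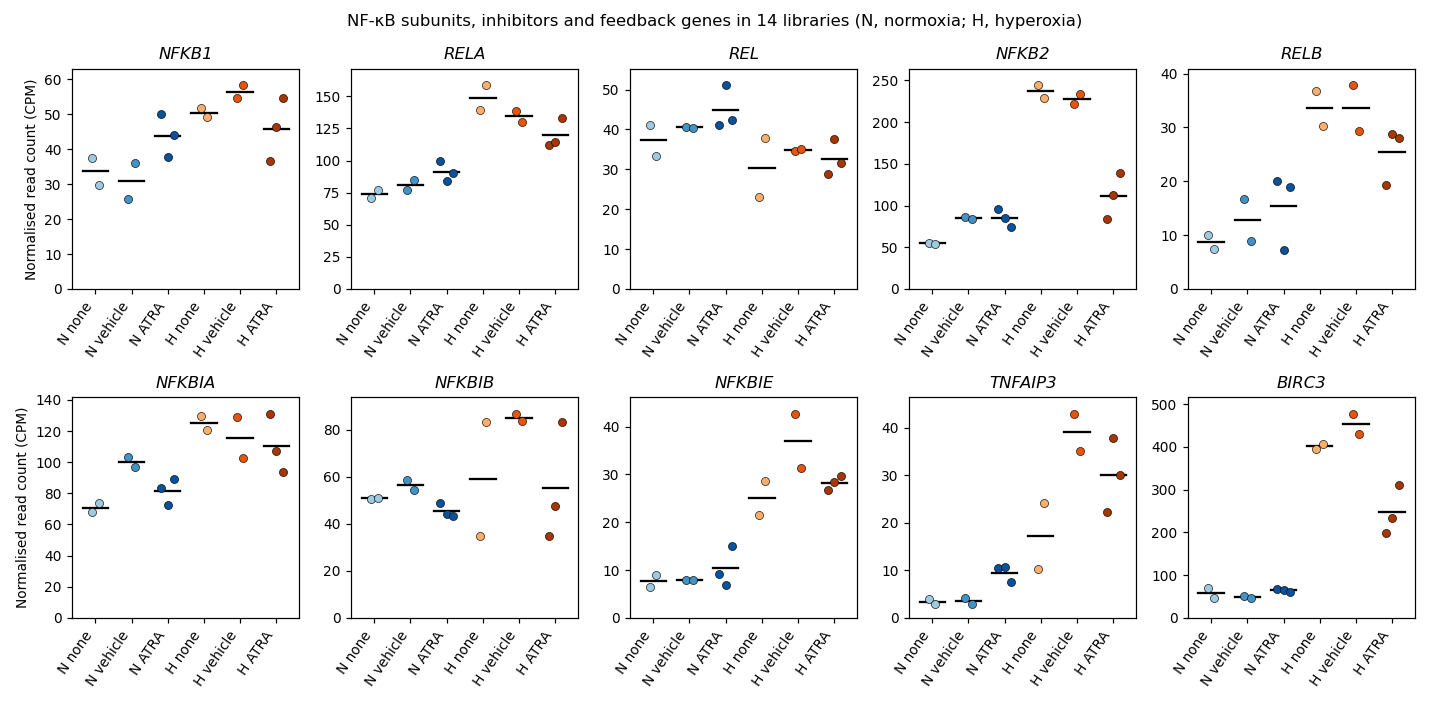
Normalised read count (CPM, linear axis from 0) of each of the 10 genes in the 14 libraries, by group (N, normoxia; H, hyperoxia; none, without vehicle). Points are libraries and bars are group means. The 7 hyperoxia libraries of BIRC3 sit between 198 and 477 CPM, above all 7 normoxia libraries, and the hyperoxia libraries with ATRA sit below the other hyperoxia libraries for NFKB2 and BIRC3.

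Levels of different genes were compared only after division by the length of the transcript (CPM per kb). In normoxia with vehicle, NFKBIA was the highest of the 10 at 64.4 ± 2.89 CPM per kb (SD, n = 2), followed by NFKBIB at 47.3 ± 2.44 and RELA at 32.2 ± 2.19. TNFAIP3 was the lowest at 0.77 ± 0.18 CPM per kb. NFKB2 at 28.2 ± 0.71 CPM per kb lay just below RELA, with libraries at 27.7 and 28.7 against 30.7 and 33.8 CPM per kb. NFKB1, BIRC3 and RELB, at 7.63, 7.02 and 5.66 CPM per kb, overlapped in their libraries and could not be ordered.

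In hyperoxia with vehicle the order changed. NFKB2 stood at 75.6 ± 2.72 CPM per kb (SD, n = 2), NFKBIA at 74.3 ± 11.8, NFKBIB at 71.4 ± 1.88 and BIRC3 at 66.0 ± 4.87. Of these levels, the libraries of NFKBIA, at 65.9 and 82.6 CPM per kb, overlapped those of NFKB2, NFKBIB and BIRC3, so these neighbours were not separated from it. REL was the lowest at 3.14 CPM per kb. In hyperoxia with ATRA, NFKB2 was at 37.2 ± 9.10 and BIRC3 at 35.9 ± 8.46 CPM per kb (SD, n = 3), again below NFKBIA at 71.0 ± 12.1 CPM per kb.

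**Figure D2:**
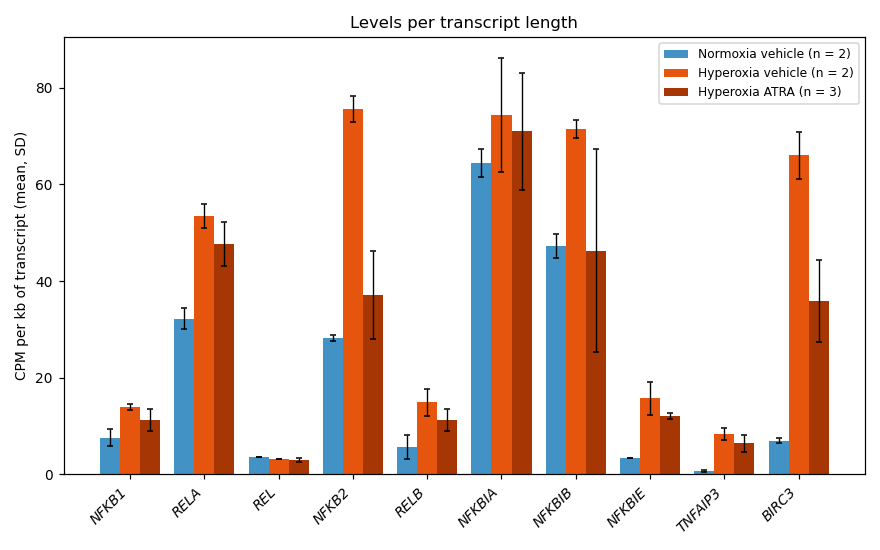
Level per transcript length (CPM per kb, mean with SD, axis from 0) of the 10 genes in normoxia with vehicle (n = 2), hyperoxia with vehicle (n = 2) and hyperoxia with ATRA (n = 3). NFKB2 and BIRC3 rise from 28.2 and 7.02 to 75.6 and 66.0 CPM per kb between the vehicle groups, while REL stays at 3.65 and 3.14 CPM per kb.

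The comparison of hyperoxia with normoxia among vehicle libraries asked which arm of the system changed with oxygen. Of the 10 genes, 7 were upregulated in hyperoxia and none was downregulated, where 17.5% of the 14957 genes tested were DE (8.68% upregulated). The upregulated genes were NFKB1, RELA, NFKB2, RELB, NFKBIE, TNFAIP3 and BIRC3, so both noncanonical subunits, 2 of 3 canonical subunits, 1 of 3 inhibitors and both feedback enzymes were among them. The median log2 fold change of the 10 genes was 1.14, beside 0.01 over all genes tested. DE genes had an adjusted p-value under 0.05 by the quasi-likelihood test of edgeR, where the Benjamini-Hochberg method was applied to every gene tested.

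Among the canonical subunits, RELA, the main activating subunit, was at 77.2 and 85.0 CPM in normoxia and at 139 and 129.9 CPM in hyperoxia. The groups did not overlap, and the log2 fold change was 0.72 (standard error 0.16, edgeR adjusted p = 0.00207). NFKB1, which encodes the precursor of the small subunit that pairs with RELA, was at 25.7 and 36.2 CPM in normoxia and at 54.6 and 58.4 CPM in hyperoxia. Its log2 fold change was 0.85 (standard error 0.24, edgeR adjusted p = 0.0145). LOC105377347 overlaps NFKB1 and held 6.51% as many counts, and reads of the pair could not be told apart without the strand setting. REL, the subunit best known from lymphocytes, was at 40.7 and 40.4 CPM in normoxia and at 34.7 and 35.1 CPM in hyperoxia. Its libraries did not overlap, but the log2 difference of -0.21 had a 95% interval from -0.67 to 0.24 (edgeR adjusted p = 0.581).

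The estimates were larger for the noncanonical subunits, but a difference between the arms was not tested. The interval of RELB overlapped those of RELA and NFKB1. NFKB2 was at 86.5 and 83.5 CPM in normoxia and at 222 and 234 CPM in hyperoxia, a 2.68-fold increase (95% interval 2.05 to 3.52, edgeR adjusted p = 1.11e-05). RELB, the partner of processed NFKB2, was at 16.7 and 8.87 CPM in normoxia and at 37.9 and 29.3 CPM in hyperoxia. Both genes were higher in each hyperoxia library than in each normoxia library. The 2.70-fold increase of RELB had a wide interval, from 1.52 to 4.80 (edgeR adjusted p = 0.0143).

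Among the inhibitors, NFKBIE passed the test and NFKBIA and NFKBIB did not. NFKBIE, which encodes IκBε, was at 7.99 and 7.98 CPM in normoxia and at 42.7 and 31.2 CPM in hyperoxia, a 4.60-fold increase (95% interval 2.79 to 7.58, edgeR adjusted p = 9.58e-05). NFKBIA, which encodes the classical inhibitor IκBα, was at 104 and 97.2 CPM in normoxia and at 129 and 103 CPM in hyperoxia. These libraries overlapped, and the log2 difference of 0.20 (95% interval -0.16 to 0.57) did not pass the test (edgeR adjusted p = 0.498). NFKBIB, which encodes IκBβ, was at 58.4 and 54.3 CPM in normoxia and at 86.7 and 83.5 CPM in hyperoxia. Its libraries did not overlap, but the log2 difference of 0.60 did not pass the test either (95% interval 0.05 to 1.14, edgeR adjusted p = 0.133). NFKBIB passed without the filter on low counts, with only the 4 libraries compared, and without library 1 or 3 of hyperoxia with ATRA (edgeR adjusted p = 0.0439, 0.00127, 0.0365 and 0.0389), and NFKBIA with vehicle and no vehicle libraries pooled (0.49, 0.0234).

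Both feedback enzymes increased the most among the 10 genes in this comparison. TNFAIP3, a ubiquitin-editing enzyme that shuts off canonical signalling, was at 4.17 and 3.02 CPM in normoxia and at 42.9 and 35.1 CPM in hyperoxia. The 11.1-fold increase (95% interval 6.48 to 19.1, edgeR adjusted p = 8.11e-07) rested on 12 and 17 counts in the normoxia libraries. BIRC3, a ubiquitin ligase that serves TNF receptor complexes and, with TRAF2 and TRAF3, keeps the kinase NIK low, was at 51.1 and 45.4 CPM in normoxia and at 477 and 430.1 CPM in hyperoxia. The increase was 9.45-fold (95% interval 7.22 to 12.4, edgeR adjusted p = 1.68e-10), and BIRC3 had the sixth smallest p-value of all genes tested. Leaving out single vehicle libraries ended the calls of NFKB1 (any of hyperoxia 1, hyperoxia 2 or normoxia 1; adjusted p up to 0.233), RELB (hyperoxia 1 or normoxia 2; up to 0.255, and 0.0672 in the fit of 14 libraries in 6 groups) and RELA (normoxia 1; 0.0561), whereas NFKB2, NFKBIE, TNFAIP3 and BIRC3 passed in all 16 alternatives run.

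**Figure D3:**
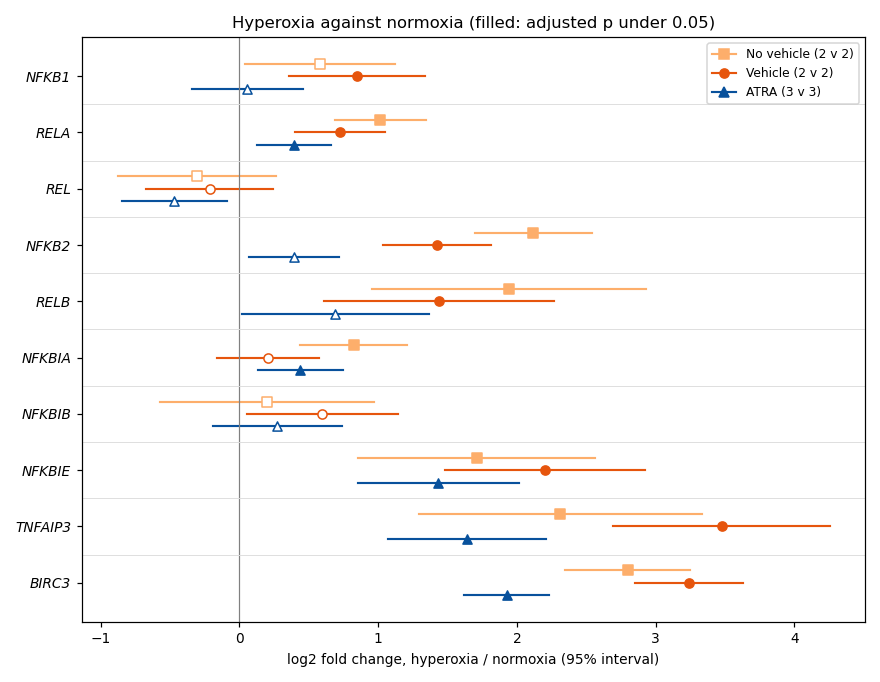
Log2 fold change of hyperoxia against normoxia with 95% intervals for the 10 genes, without vehicle (squares, 2 against 2 libraries), with vehicle (circles, 2 against 2) and with ATRA (triangles, 3 against 3), where filled symbols have an adjusted p under 0.05. NFKBIE, TNFAIP3 and BIRC3 are filled in all 3, and NFKB2 goes from 2.12 without vehicle and 1.42 with vehicle to an open triangle at 0.39 with ATRA.

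The cells without vehicle shared no library with this comparison, but their fit of 14 libraries took its estimate of spread from the vehicle and ATRA libraries as well. Without vehicle, 7 of the 10 genes were upregulated and none was downregulated, where 15.2% of the 15339 genes tested were DE (7.57% upregulated). The median log2 fold change of the 10 genes was 1.36, beside -0.10 over all genes tested. NFKB2 was at 55.4 and 53.7 CPM in normoxia and at 245 and 229 CPM in hyperoxia, a 4.34-fold increase (95% interval 3.24 to 5.82, edgeR adjusted p = 4.52e-06). BIRC3 was at 68.8 and 46.1 CPM in normoxia and at 395 and 407 CPM in hyperoxia, a 6.95-fold increase (edgeR adjusted p = 7.79e-07). In both genes the 2 groups were far apart relative to their spread. RELA rose from 70.6 and 76.8 CPM to 139 and 159 CPM, a 2.02-fold increase (edgeR adjusted p = 3.86e-04).

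NFKBIA was upregulated in the cells without vehicle, from 68.1 and 73.6 CPM in normoxia to 129.6 and 121 CPM in hyperoxia, with a log2 fold change of 0.82 (standard error 0.18, edgeR adjusted p = 0.00617). NFKB1 was at 37.6 and 29.7 CPM in normoxia and at 51.7 and 49.2 CPM in hyperoxia. Its groups did not overlap, but the log2 difference of 0.58 did not pass the test (95% interval 0.04 to 1.12, edgeR adjusted p = 0.136). RELB, NFKBIE and TNFAIP3 were upregulated 3.84-fold, 3.27-fold and 4.97-fold. The 2 hyperoxia libraries without vehicle disagreed on NFKBIB, at 35.0 and 83.1 CPM against 50.5 and 51.1 CPM in normoxia, and on TNFAIP3, at 10.4 and 24.1 CPM against 3.90 and 2.88 CPM. The lower value of each pair came from library 1, the library with the fewest detected genes. When only the 4 libraries compared were fitted, 2 of the 10 genes, NFKB2 and BIRC3, were DE among 58 DE genes, and without library 1 of normoxia 4 were. Without library 2 of normoxia the calls of RELB and TNFAIP3 were lost. Without library 2 of hyperoxia, which left library 1 alone in its group, REL differed by -0.75.

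With ATRA on both sides, 5 of the 10 genes were upregulated in hyperoxia and none was downregulated, where 22.7% of the genes tested were DE (11.4% upregulated). The median log2 fold change of the 10 genes was 0.42, beside 0.01 over all genes tested. BIRC3 was at 68.3, 65.2 and 61.4 CPM in normoxia and at 198, 233 and 311 CPM in hyperoxia, a 3.80-fold increase (95% interval 3.07 to 4.70, edgeR adjusted p = 5.36e-09). TNFAIP3 was at 10.4, 10.6 and 7.55 CPM in normoxia and at 22.2, 37.9 and 30.0 CPM in hyperoxia, a 3.12-fold increase (edgeR adjusted p = 1.55e-04). Neither gene overlapped between the oxygen groups. NFKBIE, at 9.13, 6.87 and 15.1 CPM in normoxia and 26.7, 28.3 and 29.7 CPM in hyperoxia, increased 2.70-fold (edgeR adjusted p = 6.95e-04).

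Neither noncanonical subunit passed the test with ATRA. NFKB2 was at 95.7, 84.9 and 74.7 CPM in normoxia and at 84.0, 113 and 139 CPM in hyperoxia, so that the groups overlapped, and the log2 difference was 0.39 (95% interval 0.07 to 0.71, edgeR adjusted p = 0.0753). RELB was at 20.1, 7.18 and 19.0 CPM in normoxia and at 19.3, 28.7 and 28.1 CPM in hyperoxia, a log2 difference of 0.69 (95% interval 0.02 to 1.36, edgeR adjusted p = 0.134). NFKB1 differed by 0.05 (95% interval -0.35 to 0.46), with 50.1, 37.8 and 44.0 CPM in normoxia and 36.6, 46.3 and 54.8 CPM in hyperoxia. RELA and NFKBIA rose by 0.39 and 0.44 on the log2 scale (edgeR adjusted p = 0.0297 and 0.0341), and these calls were lost in 12 and 13 of 17 alternatives, where the adjusted p reached 0.135 and 0.227. Without the 3 libraries that carry the lowest numbers in the labels (library 1 of hyperoxia without vehicle, of hyperoxia with ATRA and of normoxia with ATRA), NFKB2 differed by 0.67 (edgeR adjusted p = 0.00356) and RELB by 1.09 (edgeR adjusted p = 0.0434), an alternative chosen after seeing the data. Leaving out library 1 of hyperoxia with ATRA alone gave 0.57 for NFKB2 (edgeR adjusted p = 0.00420), leaving out library 3 gave 0.19 (0.428), and without the filter on low counts the difference of 0.38 passed the test (0.0476). Likewise NFKBIB passed without library 1 (0.54, edgeR adjusted p = 0.0427) and REL without library 2 of hyperoxia with ATRA (-0.60, 0.0325).

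Over all 14 libraries, with treatment as a covariate, hyperoxia was compared with normoxia with 7 libraries on each side. Here 8 of the 10 genes were upregulated and none was downregulated, where 32.3% of the 14326 genes tested were DE (16.1% upregulated). BIRC3 ranged from 45.4 to 68.8 CPM in normoxia (median 61.4) and from 198 to 477 CPM in hyperoxia (median 395). NFKBIE ranged from 6.44 to 15.1 CPM in normoxia (median 7.99) and from 21.6 to 42.7 CPM in hyperoxia (median 28.7). RELA ranged from 70.6 to 99.6 CPM in normoxia (median 84.0) and from 112 to 159 CPM in hyperoxia (median 133). In these 3 genes no hyperoxia library overlapped a normoxia library, whatever the treatment. NFKB2, RELB and TNFAIP3 each had 6 of 7 hyperoxia libraries above all normoxia libraries. How many of all genes tested separate in these ways was not counted, so the ranges describe the 10 genes only. For NFKB2 the exception was library 1 of hyperoxia with ATRA, at 84.0 CPM against a normoxia maximum of 95.7 CPM.

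The average log2 fold change over treatments was 2.54 for BIRC3 (standard error 0.18, edgeR adjusted p = 1.26e-08), 2.30 for TNFAIP3 (0.30, adjusted p = 1.30e-05) and 1.72 for NFKBIE (0.22, adjusted p = 8.68e-06). It was 1.24 for RELB, 1.17 for NFKB2, 0.65 for RELA, 0.47 for NFKBIA and 0.42 for NFKB1. REL alone had a negative value, -0.36, with 33.3 to 51.2 CPM in normoxia and 23.0 to 37.8 CPM in hyperoxia (edgeR adjusted p = 0.0555). With DESeq2, with RLE scaling and without library 2 of hyperoxia without vehicle REL passed the threshold (adjusted p = 0.0303, 0.0479 and 0.0247). NFKBIB spanned 34.8 to 86.7 CPM in hyperoxia, below as well as above its normoxia range of 43.5 to 58.4 CPM, and its log2 difference of 0.33 did not pass the test (edgeR adjusted p = 0.195). It passed without library 1 of hyperoxia without vehicle (0.46, edgeR adjusted p = 0.0138) and without the 3 libraries with the lowest numbers (0.61, 4.00e-04). The call of NFKB1 (edgeR adjusted p = 0.0430) was lost in 10 of 18 alternatives.

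The effect of ATRA in hyperoxia was measured against vehicle and shares the 2 hyperoxia vehicle libraries with the oxygen comparison above. Here 2 of the 10 genes, NFKB2 and BIRC3, were downregulated and none was upregulated, where 2.21% of the genes tested were DE (0.695% downregulated). The median log2 fold change of the 10 genes was -0.39, beside 0.00 over all genes tested. NFKB2 fell from 222 and 234 CPM with vehicle to 84.0, 113 and 139 CPM with ATRA. BIRC3 fell from 477 and 430.1 CPM to 198, 233 and 311 CPM. In both genes every ATRA library lay below both vehicle libraries, and library 1 was the lowest and library 3 the highest of the ATRA group.

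The log2 fold change of NFKB2 was -1.03 (standard error 0.16, edgeR adjusted p = 8.44e-04), to 0.49 times its vehicle level. That of BIRC3 was -0.88 (standard error 0.15, edgeR adjusted p = 0.00152), to 0.54 times its vehicle level. NFKB2 passed in all 17 alternatives run. BIRC3 passed in all but the fit without hyperoxia vehicle library 1, where the adjusted p was 0.0614. Epithelial markers moved in the opposite direction in the same comparison, with 5 of 8 higher and 1 lower with ATRA (KRT18 rose by 0.97, edgeR adjusted p = 9.37e-04), and their part in the result was not tested.

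The other 8 genes did not pass the test. NFKBIB was at 86.7 and 83.5 CPM with vehicle and at 34.8, 47.4 and 83.1 CPM with ATRA, a log2 difference of -0.63 (95% interval -1.12 to -0.13, edgeR adjusted p = 0.211). Library 3 of the ATRA group lay at the vehicle level, and without it the log2 difference was -1.07 (edgeR adjusted p = 0.00382). Without the filter on low counts NFKBIB also passed (edgeR adjusted p = 0.0369). TNFAIP3 was at 42.9 and 35.1 CPM with vehicle and at 22.2, 37.9 and 30.0 CPM with ATRA, with overlap between the groups (log2 difference -0.39, 95% interval -0.96 to 0.18, edgeR adjusted p = 0.586). RELB, at 37.9 and 29.3 CPM against 19.3, 28.7 and 28.1 CPM, had a log2 difference of -0.41 with an interval from -1.12 to 0.30. RELA, NFKB1, REL and NFKBIE had log2 differences of -0.16, -0.31, -0.11 and -0.38. The smallest difference was that of NFKBIA, -0.06, with an interval from -0.39 to 0.27.

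**Figure D4:**
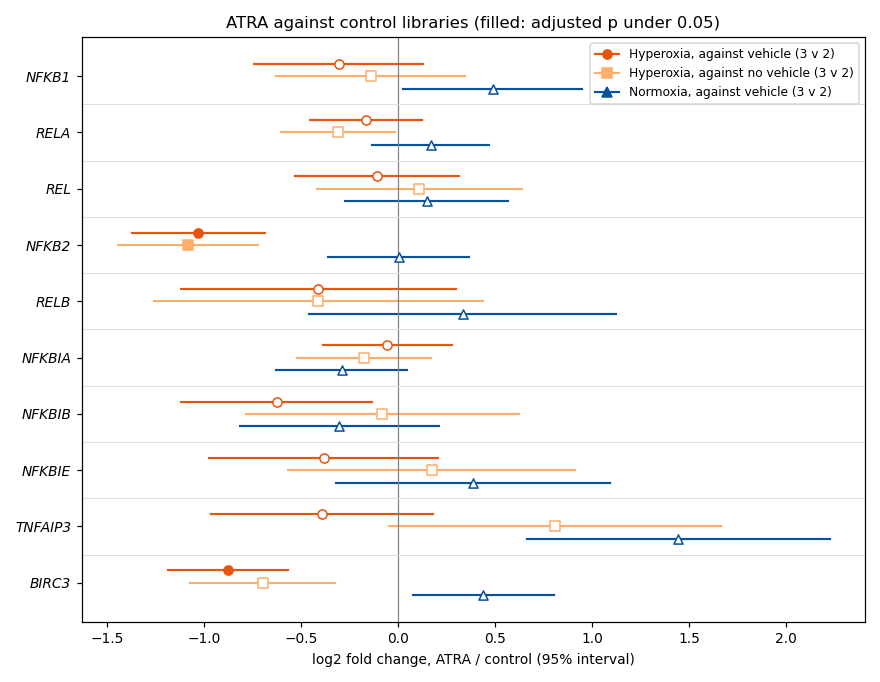
Log2 fold change of ATRA against control libraries with 95% intervals for the 10 genes, in hyperoxia against vehicle (circles), in hyperoxia against cells without vehicle (squares) and in normoxia against vehicle (triangles), each 3 against 2 libraries. Filled symbols have an adjusted p under 0.05. NFKB2 is filled at -1.03 and -1.08 in hyperoxia and lies at 0.00 in normoxia, and BIRC3 is filled at -0.88 against vehicle.

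Against the hyperoxia libraries without vehicle, which share the ATRA libraries but not the controls, 1 of the 10 genes was DE, where 0.43% of the 15339 genes tested were (0.17% downregulated). It was NFKB2, which fell from 245 and 229 CPM without vehicle, with a log2 fold change of -1.08 (standard error 0.17, edgeR adjusted p = 0.0118). BIRC3, at 395 and 407 CPM without vehicle, differed by -0.70 (95% interval -1.07 to -0.32, edgeR adjusted p = 0.0989), and with DESeq2 its adjusted p was 0.0116. BIRC3 also passed without the filter on low counts and without library 3 of hyperoxia with ATRA (edgeR adjusted p = 0.00108 and 0.0353). Without library 2 of hyperoxia with ATRA the call of NFKB2 was lost (edgeR adjusted p = 0.0565). TNFAIP3, at 10.4 and 24.1 CPM without vehicle, had the opposite sign to the vehicle comparison, 0.81 (95% interval -0.05 to 1.66, edgeR adjusted p = 0.315). Leaving out library 2 of hyperoxia without vehicle left library 1, which stood apart, as the lone control. In that fit TNFAIP3 differed by 1.53 and BIRC3 by -0.66.

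In normoxia ATRA changed none of the 10 genes beyond the threshold against vehicle, where 1.25% of the genes tested were DE. With edgeR 3 of the 10 had an unadjusted p under 0.05, as had 1315 of the 14957 genes tested. With DESeq2 1 of the 10 was DE, TNFAIP3, among 286 DE genes. TNFAIP3 was at 4.17 and 3.02 CPM with vehicle and at 10.4, 10.6 and 7.55 CPM with ATRA, so that all 3 ATRA libraries lay above both vehicle libraries. The log2 difference was 1.44 (95% interval 0.66 to 2.22, edgeR adjusted p = 0.0641, DESeq2 adjusted p = 0.0380), and it passed without the filter on low counts and without library 1 of hyperoxia with ATRA (edgeR adjusted p = 0.0368 and 0.0294). BIRC3 was at 51.1 and 45.4 CPM with vehicle and at 68.3, 65.2 and 61.4 CPM with ATRA, also without overlap, with a log2 difference of 0.44 (95% interval 0.08 to 0.80, edgeR adjusted p = 0.401). NFKB2 was at 86.5 and 83.5 CPM with vehicle and at 95.7, 84.9 and 74.7 CPM with ATRA. The groups overlapped, and the log2 difference was 0.00, with an interval from -0.36 to 0.37. NFKB1 differed by 0.49 (95% interval 0.03 to 0.95, edgeR adjusted p = 0.520).

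Against normoxia libraries without vehicle, again none was DE, where 0.437% of the genes tested were. With edgeR 3 of the 10 had an unadjusted p under 0.05, as had 798 of the 15339 genes tested. With DESeq2 1 of the 10 was DE, NFKB2, among 187 DE genes. NFKB2 was at 55.4 and 53.7 CPM without vehicle, below all 3 ATRA libraries, and its log2 difference was 0.64 (95% interval 0.25 to 1.03, edgeR adjusted p = 0.259, DESeq2 adjusted p = 0.0492). TNFAIP3, at 3.90 and 2.88 CPM without vehicle, differed by 1.47 (95% interval 0.51 to 2.44, edgeR adjusted p = 0.352). BIRC3, at 68.8 and 46.1 CPM without vehicle, differed by 0.17 (95% interval -0.24 to 0.58), and all 3 ATRA libraries lay between these values.

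Whether the effect of ATRA differed between the oxygen exposures was tested by the interaction term. It was DE in 1 of the 10 genes, BIRC3, where 0.14% of the genes tested were (0.0401% with a negative term). BIRC3 changed by -0.88 with ATRA in hyperoxia and by 0.44 in normoxia, and the difference of -1.31 (standard error 0.23) had an edgeR adjusted p of 0.0145. The estimate lay between -1.52 and -1.17 when single libraries were left out, and the call was lost without normoxia ATRA library 1, hyperoxia vehicle library 1 or either normoxia vehicle library (adjusted p from 0.0567 to 0.221). It was also lost in the fit of 14 libraries and with pooled controls (adjusted p = 0.239 and 0.141). NFKB2 changed by -1.03 in hyperoxia and by 0.00 in normoxia, and the difference of -1.03 (95% interval -1.54 to -0.53) had an edgeR adjusted p of 0.130 and a DESeq2 adjusted p of 0.00684. It passed with edgeR without the filter on low counts and without library 3 of hyperoxia with ATRA (adjusted p = 0.00232 and 0.0310). For TNFAIP3 the difference was -1.83 (95% interval -2.80 to -0.87, edgeR adjusted p = 0.193). The median interaction term of the 10 genes was -0.76, beside 0.00 over all genes tested. NFKBIA had a positive term of 0.23 and the other members had negative terms. How many of all genes tested had a negative term was not counted. The terms of the 10 genes come from the same libraries, so their signs are not independent.

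Ethanol vehicle alone was compared with no vehicle at each oxygen exposure. In hyperoxia none of the 10 genes was DE by edgeR or DESeq2, where 0.00652% of the genes tested were by edgeR. An unadjusted p under 0.05 by edgeR was found for 1366 of the 15339 genes tested and for 1 of the 10. That gene was TNFAIP3, at 10.4 and 24.1 CPM without vehicle and 42.9 and 35.1 CPM with vehicle, with a log2 difference of 1.19 (95% interval 0.28 to 2.11, edgeR adjusted p = 0.554). The fit without library 2 of hyperoxia without vehicle leaves library 1 as the lone control and assumes that it varies like the other groups. In that fit TNFAIP3 and NFKBIB differed by 1.93 and 1.31. In normoxia again none of the 10 was DE by edgeR or DESeq2, and 0% of the genes tested were DE by edgeR. An unadjusted p under 0.05 by edgeR was found for 133 of the genes tested and for 2 of the 10. These were NFKB2, at 55.4 and 53.7 CPM without vehicle and 86.5 and 83.5 CPM with vehicle (log2 difference 0.64, 95% interval 0.22 to 1.06, edgeR adjusted p = 1), and NFKBIA, at 68.1 and 73.6 CPM against 104 and 97.2 CPM (0.50, 95% interval 0.12 to 0.89, edgeR adjusted p = 1). In each of these genes the libraries of the groups did not overlap.

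The make-up of the subunit pool was described from levels per length, without a test. The 5 subunits summed to 61.9 and 63.8 CPM per kb in normoxia without vehicle, to 76.8 and 77.9 in normoxia with vehicle, and to 160 to 168 CPM per kb in the 4 hyperoxia control libraries. With ATRA the sum was 78.6 to 96.3 CPM per kb in normoxia and 92.7 to 128 CPM per kb in hyperoxia. NFKB2 made up 28.8% of the sum in both normoxia libraries without vehicle, 35.5% and 37.4% with vehicle, and 45.2% to 48.5% in the hyperoxia control libraries. In hyperoxia with ATRA its share was 30.1%, 34.0% and 36.1%, within the normoxia range of 28.8% to 37.4%. RELA made up 32.3% to 37.6% of the sum in the hyperoxia controls and 39.9% to 49.2% in the other libraries.

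The 3 inhibitors summed to 1.39 to 1.55 times the subunit sum in the 4 normoxia control libraries and to 0.73 to 1.07 times in the 4 hyperoxia control libraries, which did not overlap. With ATRA the ratio was 1.02 to 1.19 in normoxia and 1.09 to 1.35 in hyperoxia. These ratios concern RNA and say nothing of protein or of dimers.

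The genes most like the noncanonical subunits across the 14 libraries were listed by Pearson's r of log2 CPM. For NFKB2 they were SLC6A6 (r = 0.95), EGFR (0.94), ZNF335 (0.94), CPEB4 (0.94) and TRIM47 (0.94). For RELB they were GATA6 (r = 0.95), LOC729867 (0.94), CREBBP (0.93), FBXO10 (0.92) and DYRK1A (0.92). The libraries share their oxygen exposure and fall apart by it, so that many genes that differ with oxygen have a high r, and the values are a description.

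Other genes of the pathway came from fixed lists. Among 9 tested regulators of the noncanonical arm, 4 were upregulated and none was downregulated in hyperoxia with vehicle (median log2 fold change 0.44), and over 14 libraries 5 and none. Of all genes tested, 8.68% and 16.1% were upregulated in these comparisons. TNFRSF12A, the receptor for TWEAK, rose from 91.1 ± 8.37 to 311 ± 31.6 CPM (SD, n = 2 each), by 1.78 on the log2 scale (edgeR adjusted p = 1.04e-07). BIRC2, the closest relative of BIRC3, rose by 1.10 (edgeR adjusted p = 5.45e-04). MAP3K14 and TRAF2 rose by 0.44 and 0.53 with edgeR adjusted p-values just under the threshold, 0.0499 and 0.0490. The list mixes genes that drive the arm, such as MAP3K14, with genes that hold it back, such as TRAF2. Its counts therefore give no direction for the arm. With ATRA in hyperoxia none of the 9 was DE (edgeR), and TNFRSF12A without vehicle rose by 2.40 in hyperoxia (edgeR adjusted p = 7.79e-07).

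Among 22 tested kinases, receptors and adaptors of the canonical arm, 4 were upregulated and 2 downregulated in hyperoxia with vehicle (median log2 fold change 0.16), where 17.5% of all genes tested were DE and 8.68% were upregulated. The receptors TNFRSF1A and IL1R1 fell by 1.14 and 1.24 on the log2 scale (edgeR adjusted p = 1.48e-06 and 6.89e-04), from 415 ± 20.4 to 188 ± 1.43 CPM and from 71.1 ± 14.1 to 30.7 ± 8.70 CPM (SD, n = 2). IRAK1, a kinase below the interleukin-1 receptor, and SHARPIN, a subunit of the linear ubiquitin ligase, rose by 0.86 and 0.85 (edgeR adjusted p = 5.79e-05 and 0.00239). With ATRA in hyperoxia 1 of the 22 rose, TNFRSF1A, by 0.45 (edgeR adjusted p = 0.0495).

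Of 14 further inhibitors and feedback genes tested, 2 were upregulated and 1 was downregulated in hyperoxia with vehicle (median log2 fold change 0.24), a share close to the 17.5% of all genes tested that were DE. The upregulated genes were TNIP1, a binding partner of the TNFAIP3 protein, by 0.66, and the deubiquitinase CYLD, by 1.20 (edgeR adjusted p = 0.00274 and 0.0153). BCL3, an IκB family member that binds NFKB1 and NFKB2 dimers in the nucleus, fell by 0.86, from 52.4 ± 1.60 to 28.4 ± 9.78 CPM (SD, n = 2, edgeR adjusted p = 0.0101). With ATRA in hyperoxia BCL3 was the only DE gene of the 14 and rose by 1.06, to 60.0 ± 2.51 CPM (SD, n = 3, edgeR adjusted p = 0.00645). Against hyperoxia libraries without vehicle, where BCL3 was at 36.7 ± 8.94 CPM (SD, n = 2), its log2 difference of 0.72 with ATRA did not pass the test (edgeR adjusted p = 0.219).

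Of 21 tested NF-κB target genes outside the 10, 7 were upregulated and none was downregulated in hyperoxia with vehicle (median log2 fold change 0.58), where 8.68% of all genes tested were upregulated. They included the survival genes TRAF1, from 6.05 ± 0.78 to 81.3 ± 7.30 CPM, and CFLAR, from 84.7 ± 8.17 to 220.2 ± 1.72 CPM (SD, n = 2; log2 fold changes 3.76 and 1.37, edgeR adjusted p = 5.56e-06 and 2.29e-06). PLAU and CSF1 rose by 0.92 and 0.82. With ATRA in hyperoxia the list split, with 3 higher and 3 lower, where 2.21% of all genes tested were DE. TNFAIP2, which also responds to retinoic acid, and C3 rose by 1.47 and 1.78, whereas CXCL5 fell by 0.95 (edgeR adjusted p = 3.47e-07, 0.00306 and 0.00166). TNFAIP2 rose with ATRA in normoxia too, by 1.75 against libraries without vehicle (edgeR adjusted p = 5.96e-06).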

How the data were processed

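Total RNA of 15 A549 libraries was sequenced from a directional kit. Read counts per gene were deposited by the authors, who per the labels and the study's methods used Trimmomatic 0.38, HISAT2 and HTSeq on hg38. The annotation, strand and overlap settings of the counting are not given in the sources used here. Summary lines for unassigned reads (75.2 to 78.4% of each file's total, mostly reads outside features) were left out of library sizes and tests. Groups came from the labels. 1 library, whose title and treatment disagree, was kept out of every comparison.

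Low-count genes were dropped by filterByExpr (10 counts, and 15 in total), libraries were scaled by TMM, and edgeR 4.0.16 in R 4.3.3 fitted a quasi-likelihood model to the 10 vehicle and ATRA libraries in 4 groups, to 14 libraries in 6 groups for comparisons without vehicle, and to 14 libraries by oxygen with treatment as a covariate. All 10 genes passed the filter in each fit. DE genes had a Benjamini-Hochberg adjusted p under 0.05 over all genes tested. Log2 CPM for correlations used a prior count of 2. Lengths are those of MANE transcripts in GENCODE 44 (hg38), and promoter windows are from RefSeq (GRCh38.p14). The procedure was tested on simulated data. Plots were drawn with matplotlib 3.10.9.

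The genes named are the 10 members, the DE genes with the 4 smallest p-values of each pathway list in the vehicle oxygen comparison, the ATRA comparison in hyperoxia and the comparison of 14 libraries, the 5 genes most like NFKB2 and RELB, and label and cell type checks. A result that falls under this rule is not reported here. Members and lists were chosen with earlier results of these data known. BIRC3, which acts in both arms, was kept with the feedback genes. Alternatives were DESeq2 1.42.0, RLE scaling, no filter, other sets of libraries in the fit, pooled controls, leaving out each library in turn and, chosen after seeing the data, omitting 3 libraries with the lowest numbers.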

Additional observations from a re-analysis of the deposited data

Results flagged for a closer look

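The ATRA effect on BIRC3 differed between the oxygen exposures in the main edgeR fit, but this call was lost in 6 of 16 alternatives. The log2 difference between the effect in hyperoxia (-0.88) and the effect in normoxia (0.44) was -1.31, and it was the only one of the 10 genes whose interaction term passed edgeR's threshold (adjusted p = 0.0145). With DESeq2 the interaction term of NFKB2 passed as well (adjusted p = 0.00684). In hyperoxia all 3 ATRA libraries of BIRC3 lay below the vehicle libraries, and in normoxia all 3 lay above them. The normoxia effect alone did not pass the test (edgeR adjusted p = 0.401). Normoxia libraries without vehicle, at 46.1 and 68.8 CPM, lay on either side of all 3 ATRA libraries.

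1 library was in no comparison, because its title and its treatment label disagree. Its plain CPM (not TMM scaled) exceeded that of all 4 normoxia control libraries in 9 of the 10 genes. How many of all genes did so was not counted. This library was at 66.4 CPM for NFKB1, 156 CPM for RELA, 246 CPM for NFKB2 and 27.9 CPM for RELB. Its inhibitors were at 126 CPM for NFKBIA, 109 CPM for NFKBIB and 36.9 CPM for NFKBIE. TNFAIP3 was at 28.8 CPM and BIRC3 at 409 CPM, beside normoxia maxima of 4.22 and 66.7 CPM. REL, at 27.4 CPM, lay below the normoxia control range of 33.3 to 41.8 CPM. Beside the hyperoxia control libraries, NFKB1, RELA and NFKBIB lay above their maxima of 60.0, 151 and 85.7 CPM. RELB lay below their minimum of 28.7 CPM, and the other genes lay within their ranges. No condition was inferred for this library.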

How the results depend on the processing

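Beyond the calls named in the report, the number of the 10 genes called moved by over 1.5 times as follows, and the cause was not tested. The number of all genes called moved in these fits as well. Leaving out a vehicle or no vehicle library leaves a lone library in its group, which is assumed to vary like the other groups. Without the low-count filter, which raises the number of genes tested, 1 gene was called for ATRA in normoxia, 2 for the interaction and 2 for ATRA against no vehicle in hyperoxia. Over all genes the calls there were 300, 91 and 692, against 187, 21 and 66 in the main fits. With DESeq2, the counts in these 3 comparisons were 1, 2 and 2, and 1 gene was called for ATRA against no vehicle in normoxia. Over all genes DESeq2 called 286, 96 and 445, and 187 for ATRA against no vehicle in normoxia (67 in the main fit). In the fit of 14 libraries, and with vehicle and no vehicle libraries pooled as controls, 3 genes were called for hyperoxia with ATRA and 0 for the interaction. Over all genes the fit of 14 libraries called 1975 and 4, and pooled controls gave 2073 and 5, against 3391 and 21 in the main fit. With only the 2 groups compared, 3 genes were called for hyperoxia with ATRA and 2 for hyperoxia without vehicle, where fewer libraries estimate the spread. Over all genes these fits called 2680 and 58, against 3391 and 2324 in the main fits. When each library was left out in turn, the number called ranged from 5 to 8 for hyperoxia with vehicle, from 3 to 6 for hyperoxia with ATRA, from 4 to 8 for hyperoxia without vehicle and from 7 to 9 over 14 libraries. It ranged from 1 to 3 for ATRA in hyperoxia, from 0 to 1 for ATRA in normoxia, from 0 to 2 for the interaction, from 0 to 3 for ATRA against no vehicle in hyperoxia and from 0 to 2 for vehicle against no vehicle in hyperoxia, and was 0 throughout for ATRA against no vehicle and vehicle against no vehicle in normoxia.

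Signs reversed for differences that had not passed the test, and the cause was not tested. For ATRA in normoxia NFKB2 was at -0.0072 without the filter and at -0.091 without the 3 libraries with the lowest numbers, RELB for vehicle against no vehicle in hyperoxia was at 0.036 without the filter, and with pooled controls TNFAIP3 was at 0.074 for ATRA in hyperoxia and NFKBIA at -0.078 for the interaction. Leaving out single libraries gave log2 ranges that cross 0 as follows. For hyperoxia with ATRA they were -0.11 to 0.21 (NFKB1) and -0.18 to 0.54 (NFKBIB), and for hyperoxia without vehicle -0.75 to 0.014 (REL) and -0.59 to 0.71 (NFKBIB). For ATRA against vehicle they were -0.22 to 0.10 in hyperoxia (NFKBIA), and -0.091 to 0.092 (NFKB2) and -0.10 to 0.80 (RELB) in normoxia. For ATRA against no vehicle they were -0.30 to 0.0046 (NFKB1), -0.23 to 0.52 (REL), -0.60 to 0.68 (NFKBIB) and -0.026 to 0.41 (NFKBIE) in hyperoxia, and -0.088 to 0.49 (BIRC3) in normoxia. For vehicle against no vehicle they were -0.11 to 0.63 (REL), -0.17 to 0.20 (RELB) and -0.27 to 0.068 (NFKBIA) in hyperoxia, and -0.39 to 0.10 (NFKB1), -0.022 to 0.28 (REL), -0.15 to 0.31 (NFKBIE), -0.17 to 0.29 (TNFAIP3) and -0.52 to 0.060 (BIRC3) in normoxia. No fit with a replicate block was made, because the labels give each library a number of its own and do not say which libraries form a set. TNFAIP3 had 12 to 20 counts in each normoxia control library, which limits the precision of its fold changes.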
